A study of Rattus norvegicus with 85 samples.

Results

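The mRNA of Mad2l1 carried 2 of the 179 adenosines listed in the files for measurement of A-to-I RNA editing, and both belonged to the 146 sites that the study analysed. They are all the listed sites of that gene, a rule that uses no editing level. Both lie in the 3′ untranslated region (3′UTR) of Mad2l1 on the + strand of rat chromosome 4 (build rn4), at positions 96385687 and 96385781, 94 bases apart. The site at the lower coordinate is called proximal here and the other distal, since transcription runs toward higher coordinates. They share a transcript and libraries and are therefore not replicates of each other.

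Samples came from Sprague-Dawley rats, an outbred laboratory strain. Adolescent females of the pre-reproductive stress (PRS) group went through 7 days of unpredictable stress, and control (C) females did not. Adult C and PRS females (F0, labelled P60) gave prefrontal cortex (PFC) and amygdala (AMY). O1-C and O1-PRS were newborn (P0) F1 offspring of such females, and O2-C and O2-PRS were newborn F2 offspring, which the methods trace through F1 males mated with naive females. By the labels newborn groups held both sexes, whereas the methods name males alone for F2, and the labels were followed here. Oocytes came from C and PRS females. The labels give the oocytes an age of P0, whereas the methods describe unmated rats of the stressed generation after hormonal treatment. The labels state neither how many oocytes or animals make up an oocyte sample, nor which newborns shared a litter, nor whether PFC and AMY samples came from the same animal, so p-values measure the spread between samples. Of tissue markers, the 146 sites include 4 in Gria2, a glutamate receptor gene of neurons. Its best-read site had 1391 to 41189 reads in the 71 brain samples used and 2 to 48 reads in the 13 oocyte samples. No marker that would tell PFC from AMY was checked.

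Mad2l1 encodes MAD2, a protein of the spindle assembly checkpoint. At a kinetochore without attached microtubules, MAD2 changes its fold and helps to hold back the anaphase-promoting complex until all chromosomes are attached. The checkpoint acts in dividing cells of the newborn brain and in the meiotic divisions of the oocyte, whereas most neurons of the adult brain no longer divide. A-to-I editing is carried out by ADAR enzymes, which deaminate adenosine in double-stranded RNA to inosine. Inosine is read as G, and in a 3′UTR the change leaves the protein sequence as it is. An editing level is the share of reads at a site that carry G.

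The transcript was amplified in a multiplex PCR pool and sequenced (mmPCR-seq). The primer pair listed for the proximal site is shown because it fixes which molecules were read there. No separate pair is listed for the distal site. Capitals mark the parts specific to Mad2l1, and the shared tails of 15 and 14 bases are left out.
Mad2l1 forward: CTGAAGAAACGGTGCACAAAT
Mad2l1 reverse: AGGGGAACTAACAGATTCATTGT
The gene-specific parts are 21 and 23 bases long.

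The depth of a sample, taken as the sum of its read numbers at the 146 sites, lay between 149278 and 3274843 reads in the 71 brain samples used and from 18705 to 424442 in the 13 oocyte samples. Adult brain samples were shallower than newborn ones, with medians of 601921 and 2059576 reads. A level required at least 50 reads at the site. With 5 edited reads of 50, which is 10%, the 95% Wilson interval spans 4.35% to 21.4%. No molecular identifiers were used, so reads may be PCR copies of one molecule and intervals cover counting error only. The proximal site reached the minimum in 80 of 85 samples and the distal site in 84. The exceptions at the proximal site were adult control PFC samples 29 and 20 (2 and 4 reads), O1-PRS AMY sample 53 (11 reads), and oocyte samples 1-3c and 170 (0 and 17 reads). At the distal site the exception was adult control PFC sample 29, with 6 reads. Proximal levels of adult control PFC therefore rest on 3 samples.

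Editing at both sites was low in the newborn brain, and levels in the adult brain reached higher and spread more widely. Adult medians lay above newborn medians mainly in AMY, at 9.85% against 3.8% at the proximal and 13.1% against 7.2% at the distal site. In PFC they were 3.5% against 3.05% and 6.9% against 4.65%, and no difference with age passed there. The proximal site had a median of 3.6% in 47 newborn brain samples, with a range from 0% to 12.2%. In 21 adult brain samples its median was 9.4% and its range ran from 0% to 35.6%. The distal site had a median of 5.2% in 48 newborn samples, between 0.3% and 10.8%, against 10.4% in 22 adult samples, between 0.2% and 22.1%. In oocytes the distal site stayed at or below 0.8% in all 13 samples. The proximal site of oocytes was below 1% in 7 of 11 samples and between 5.9% and 23.3% in the other 4.

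**Figure D1:**
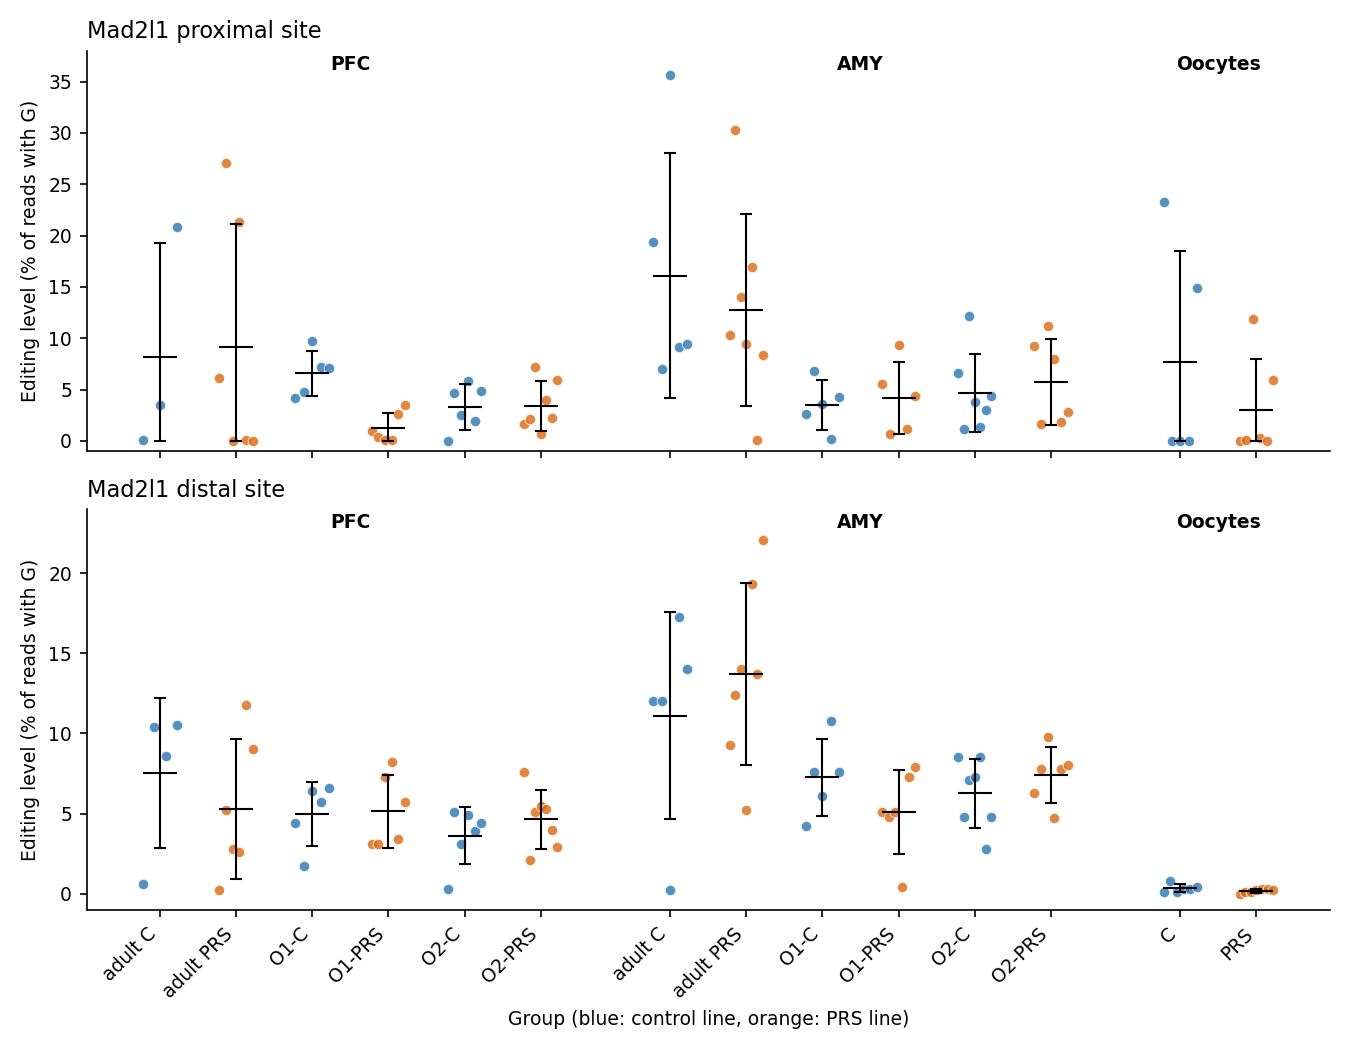
Editing level of each sample (points, % of reads with G) at the proximal (top) and distal (bottom) Mad2l1 site by group, with blue for control and orange for PRS lines. Black lines give the mean and SD over samples (lower bars end at 0), and adult AMY has the highest means at both sites while oocytes lie at or below 0.8% at the distal site.

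Ordered by mean, adult AMY of controls led the proximal site at 16.1% ± 11.9 (SD, n = 5), followed by adult AMY of PRS rats at 12.8% ± 9.34 (SD, n = 7). The lowest proximal mean was that of O1-PRS PFC, at 1.28% ± 1.44 (SD, n = 6). At the distal site adult AMY of PRS rats led at 13.7% ± 5.71 (SD, n = 7), and PRS oocytes were lowest at 0.171% ± 0.111 (SD, n = 7). No neighbouring groups in the proximal order of 14 groups differed by more than their pooled SD. In the distal order a gap wider than the pooled SD separated O2-C PFC, at 3.62% ± 1.78 (SD, n = 6), from control oocytes, at 0.333% ± 0.258 (SD, n = 6). Even there the lowest O2-C PFC sample, at 0.3%, lay within the range of the oocytes.

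The spread between samples of a group was far wider than read counting allows. At the proximal site the SD was 4.31 times the binomial SD in O1-PRS PFC and 25.8 times in adult control PFC, the extremes of the 12 brain groups. At the distal site the ratio ran from 5.88 in O1-PRS PFC to 14.6 in adult control AMY. Single deeply read samples stood near 0 beside others of their group at over 20%. In adult PFC of PRS rats, proximal levels were 0%, 0%, 0.1%, 6.1%, 21.3% and 27.1%. The low levels came from 0 of 998 reads, from 1 of 2573 reads and from 3 of 3718 reads. Their 95% Wilson intervals were 0% to 0.383%, 0.00686% to 0.22% and 0.0275% to 0.237%. These intervals, which cover counting error only and not PCR copies of one molecule, exclude the levels of the other 3 samples of the group.

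In brain a sample near 0 at the proximal site was as a rule not near 0 at the distal site, where 5 of 70 brain samples were below 1%. In oocytes all 13 samples were below 1% at the distal site, so none could be low at the proximal site alone. Of 11 oocyte samples measured at both sites, 7 were below 1% at both and 4 at the distal site alone. Of 21 adult samples with both sites measured, 4 were below 1% at the proximal site alone, 2 at the distal site alone and 1 at both. Of 47 newborn samples, 6 were below 1% at the proximal site alone, 0 at the distal site alone and 1 at both. Adult control AMY sample 11 showed the widest contrast, with 254 of 713 reads edited at the proximal site (35.6%) and 4 of 1760 at the distal site (0.2%). The opposite contrast appeared in adult PRS AMY sample 14, with 2 of 1823 reads edited at the proximal site (0.1%) and 421 of 3075 at the distal site (13.7%).

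**Figure D2:**
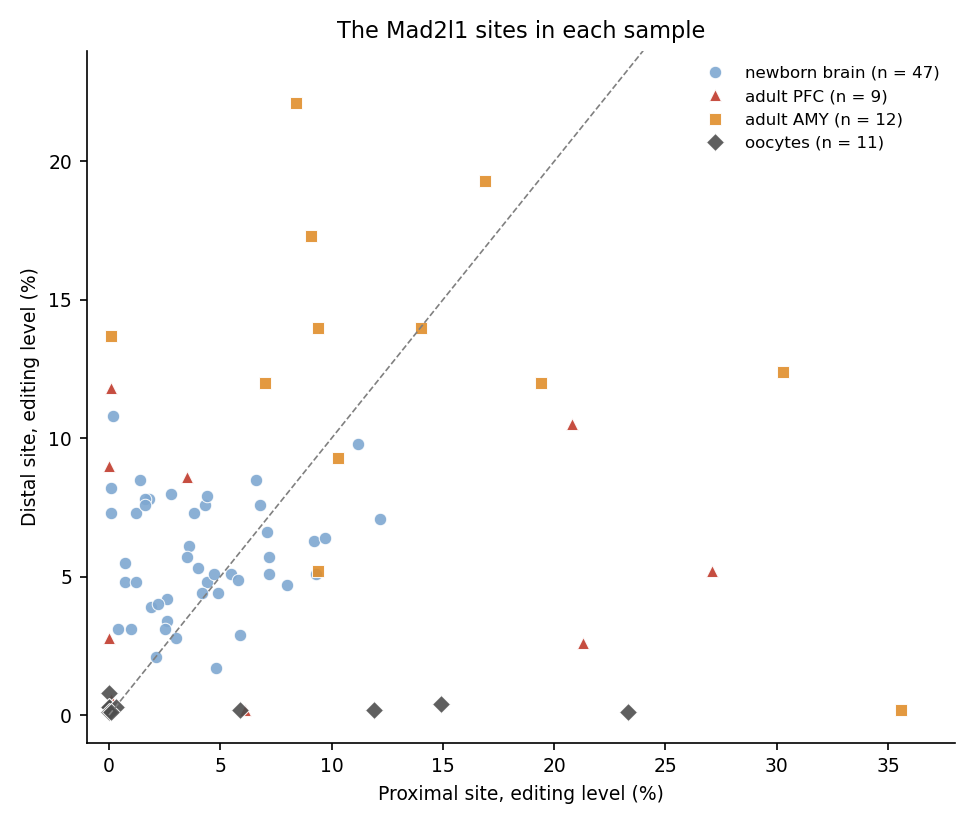
Distal against proximal editing level (%) in each sample measured at both sites, with the dashed line marking equal levels. Adult samples spread along both axes, with 1 control AMY sample at 35.6% and 0.2%, and oocytes lie along the bottom at or below 0.8% distal editing.

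With group means removed, proximal and distal levels showed no relation that passed a test. In 47 newborn samples Pearson's r was 0.0836 (permutation p = 0.599) and Spearman's rho 0.0965 (permutation p = 0.537). In 21 adult samples r was -0.27 (permutation p = 0.272) and rho -0.251 (permutation p = 0.304). Without the 2 samples farthest from the proximal median, r was -0.00741 in newborns and -0.0597 in adults. Within these 2 relations every value adjusted by Benjamini-Hochberg was 0.599. The proximal level was above the distal one in 15 of 47 newborn and 9 of 21 adult samples.

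Reads with G were also counted at listed sites outside the 146. Of 33 such sites, 7 reached 50 reads in a newborn brain sample, and their G share had a median of 0.00331%, a 95th percentile of 0.145% and a maximum of 1.06% over 105 values. At the 4 sites measured in adult brain the maximum was 0.213% over 49 values. None was measured in oocytes. The 146 are the sites where the study detected editing, so a low G share outside them follows from that choice. It is no independent measure of error at the Mad2l1 sites.

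The age comparison asked how editing differs between adult and newborn brain, and it set adults of each line against the F1 newborns of the same line. Mad2l1 editing was higher in adult AMY, with a test passed at the proximal site in controls and at the distal site in the PRS line. In the controls, proximal levels were 7%, 9.1%, 9.4%, 19.4% and 35.6% in adult AMY and 0.2%, 2.6%, 3.6%, 4.3% and 6.8% in O1-C AMY. Every adult lay above every newborn. The means were 16.1% ± 11.9 and 3.5% ± 2.41 (SD, n = 5 each), a rise of 12.6 percentage points (exact Mann-Whitney p = 0.00794, the smallest this design allows; adjusted p = 0.0208 at an FDR of 0.1). That test called 71 of 142 sites (50%), and groups did not overlap at 39.4% of the sites. By size the Mad2l1 difference came 22nd. Without adult sample 11, at 35.6%, the difference was 7.72 points (exact test, adjusted p = 0.0391).

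In AMY of the PRS line the distal site was edited more in adults than in newborns. Its levels ran from 5.2% to 22.1% in 7 adults, with a median of 13.7%, and from 0.4% to 7.9% in 6 O1-PRS newborns, with a median of 5.1%. The groups overlapped through the lowest adult sample alone, and adults were above newborns in 40 of 42 pairs of samples. The means were 13.7% ± 5.71 and 5.1% ± 2.64, a difference of 8.61 points (exact p = 0.00466, adjusted p = 0.0106). Here 82 of 146 sites were called (56.2%). In each line, 1 of the 2 Mad2l1 sites was called in AMY, a share close to that of the panel.

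The other pairings of site and line in AMY did not pass. Proximal levels in the PRS line had a median of 10.3% in 7 adults, between 0.1% and 30.3%, and were 0.7%, 1.2%, 4.4%, 5.5% and 9.3% in the 5 newborns measured. The difference of 8.55 points had an exact test's adjusted p of 0.126, and of 0.0178 without adult sample 14, which had the 0.1%. Distal levels in controls were 0.2%, 12%, 12%, 14% and 17.3% in adults and 4.2%, 6.1%, 7.6%, 7.6% and 10.8% in newborns. Of the 5 adults, 4 lay above all newborns and sample 11 below them. The difference was 3.84 points (exact test, adjusted p = 0.212), and without sample 11 it was 6.56 points with an adjusted p of 0.0391 in the exact test. Both samples near 0 at the site in question were edited at the other site.

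The libraries used carry numbers that fall into 4 sets of 48 consecutive numbers, and adults and newborns were unevenly spread over these sets. What a set stands for is not given in the sources used here. With labels permuted only within sets, the proximal call in controls (adjusted p = 0.185) and the distal call in the PRS line (adjusted p = 0.179) were lost in the exact tests. Few samples of both ages shared a set, so these tests could not decide. Within sets that held both ages, every adult lay above every newborn in both comparisons. The unadjusted exact p-values of 0.0833 and 0.0952 were therefore the smallest that these sample numbers allow. Proximal means in controls were 20.7% (n = 3) against 3.6% (n = 1) in the set that holds most adults, and 9.25% (n = 2) against 6.8% (n = 1) in another. Distal means of the PRS line were 12.6% (n = 5) against 4.95% (n = 2). All adults were female and of the F0 generation, so age and generation cannot be told apart. In the PRS line the adults had been stressed themselves, whereas the newborns were offspring of stressed females. Age and direct exposure to stress therefore cannot be told apart in that line. With newborn females alone, the distal difference in the PRS line passed (exact test, adjusted p = 0.035, 7 adults and 3 newborns). The proximal difference in controls did not (exact test, adjusted p = 0.202, 5 adults and 2 newborns). In both, every adult lay above every newborn female, so the unadjusted exact p-values (0.0167 and 0.0952) were the smallest that these numbers allow. The unlike outcomes therefore say nothing about a dependence on sex.

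Pooling over lines and generations was chosen after seeing the data. All 12 adult AMY samples then had a proximal mean of 14.2% ± 10.1 (SD), against 4.6% ± 3.45 (SD) in 23 newborn AMY samples (exact test, adjusted p = 0.000888). Distal means were 12.6% ± 5.9 (SD, n = 12) and 6.46% ± 2.3 (SD, n = 24; exact test, adjusted p = 0.000523). These groups share samples with the comparisons above.

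In PFC no difference with age passed at either site. Proximal levels of controls were 0.1%, 3.5% and 20.8% in the 3 adults measured and 4.2%, 4.8%, 7.1%, 7.2% and 9.7% in O1-C, so that adults lay on both sides of the newborns. The means differed by 1.53 points (exact test, adjusted p = 0.767). Distal levels of controls were 0.6%, 8.6%, 10.4% and 10.5% in adults and 1.7%, 4.4%, 5.7%, 6.4% and 6.6% in newborns. Of the 4 adults, 3 were above all newborns, and the difference of 2.56 points did not pass (exact test, adjusted p = 0.535). In the same comparison 50 of 144 sites were called (34.7%).

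The PRS line of the PFC gave 3 adults above all O1-PRS newborns at the proximal site, at 6.1%, 21.3% and 27.1%, and 3 at or below 0.1%. The O1-PRS newborns had proximal levels from 0.1% to 3.5%, with a median of 0.7%. Means of 9.1% ± 12.1 and 1.28% ± 1.44 (SD, n = 6 each) differed by 7.82 points (exact test, adjusted p = 0.96). Adults were higher in 18 of 36 pairs of samples. Distal means were 5.27% ± 4.37 and 5.13% ± 2.27 (SD, n = 6 each; exact test, adjusted p = 0.797). This comparison called 74 of 144 sites (51.4%). Whether the age difference is larger in AMY than in PFC was tested in controls. At the proximal site the 2 differences differed by 11.1 points (exact permutation p = 0.237, adjusted over 12 such tests p = 0.639) and at the distal site by 1.28 points (exact permutation p = 0.759, adjusted p = 0.911).

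**Figure D3:**
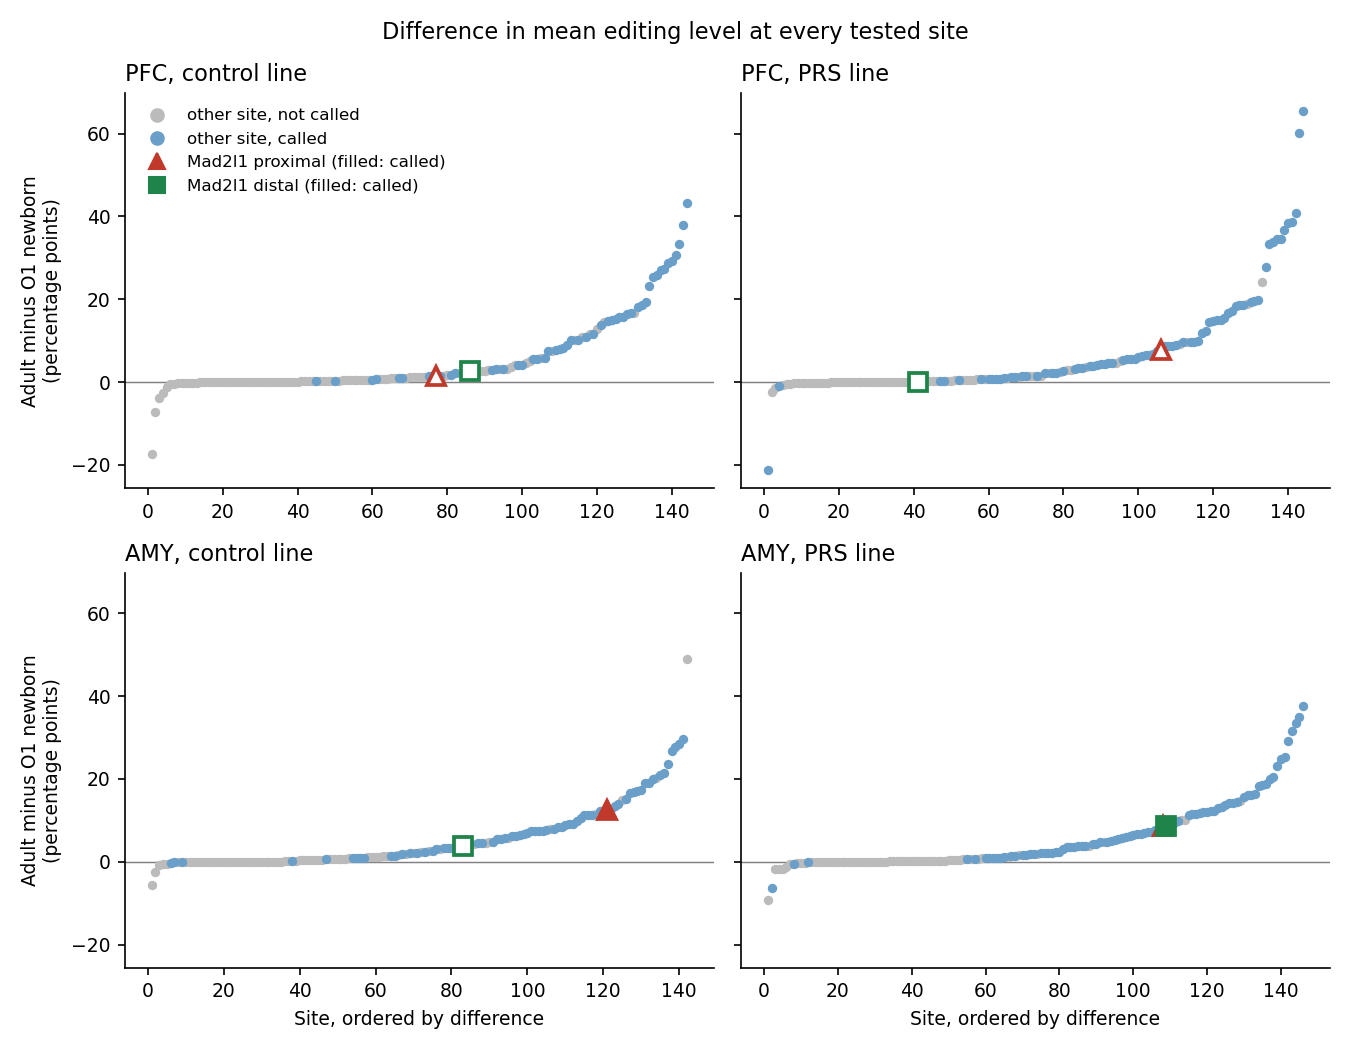
Adult minus O1 newborn difference in mean editing level (percentage points) at every tested site, ordered by size, for each region and line, with Mad2l1 as a red triangle (proximal) and a green square (distal), filled where called at an FDR of 0.1. Mad2l1 lies among many called sites in AMY, at 12.6 points in controls and 8.61 in the PRS line, and is not called in PFC.

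Most 3′UTR sites called in an age comparison were higher in adults. In AMY 34 of 71 3′UTR sites were called higher and 1 lower in adult controls, and 42 of 74 higher and 1 lower in adults of the PRS line. In PFC 17 of 73 were higher in controls, with 0 lower, and 31 of 73 higher in the PRS line, with 2 lower. The median 3′UTR difference in AMY controls was 1.76 points, beside 2.21 over all 142 sites. No other gene of the spindle checkpoint could be set beside Mad2l1, because of 9 such genes searched for, among them Bub1b, Cdc20 and Mad1l1, 0 have a site among the 146.

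Over the means of the 12 brain groups, the sites most like Mad2l1 were others that were higher in adults. The proximal site correlated most with a site of the intergenic transcript IG3 (r = 0.95), then with 3′UTR sites of Plekhd1 (r = 0.94) and Ankrd28 (r = 0.937), a site of IG1 (r = 0.937), and a nonsynonymous site of Kcnma1, a potassium channel (r = 0.933). The distal site correlated most with IG6 (r = 0.92), Kcnma1 (r = 0.884), a 3′UTR site of Ovca2 (r = 0.878), a nonsynonymous site of the glutamate receptor gene Gria2 (r = 0.862) and a 3′UTR site of Ppfia3 (r = 0.832). The median r over the 83 sites compared was 0.837 for the proximal and 0.717 for the distal site, and the Mad2l1 sites correlated with each other at r = 0.793. Group means share libraries and the split by age, so these values are descriptions.

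Adult groups enter the comparison of regions again, with AMY set against PFC. The distal site of PRS adults was the sole Mad2l1 value to pass, and it was higher in AMY. Its levels ran from 5.2% to 22.1% in 7 AMY samples, with a median of 13.7%, and from 0.2% to 11.8% in 6 PFC samples, with a median of 4%. AMY was higher in 38 of 42 pairs of samples, and 5 AMY samples lay above all of PFC. The means of 13.7% ± 5.71 and 5.27% ± 4.37 (SD) differed by 8.45 points (exact p = 0.00932, adjusted p = 0.0808), with 20 of 144 sites called (13.9%). The difference came 5th in size among the 144. The call lies close to the threshold and was lost without any of 11 of the 13 samples, with adjusted p-values of up to 0.164 in the exact tests. Within the library-number set that holds 5 AMY and all 6 PFC samples the means were 12.6% and 5.27%, and the adjusted p of the exact test within sets was 0.225.

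In adult controls the distal means were 11.1% ± 6.47 (SD, n = 5) in AMY and 7.52% ± 4.7 (SD, n = 4) in PFC (exact test, adjusted p = 0.563). The proximal means were 16.1% ± 11.9 (SD, n = 5) and 8.13% ± 11.1 (SD, n = 3; exact test, adjusted p = 0.701). At an FDR of 0.1 the exact Mann-Whitney test called 0 of 140 sites (0%) here, with 18 sites at an unadjusted p under 0.05. Proximal means of PRS adults were 12.8% ± 9.34 (SD, n = 7) and 9.1% ± 12.1 (SD, n = 6; exact test, adjusted p = 0.653).

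At birth neither site passed in any comparison of regions. Distal levels of O2-PRS ran from 4.7% to 9.8% in 6 AMY samples, with a median of 7.8%, and from 2.1% to 7.6% in 7 PFC samples, with a median of 5.1%. AMY was higher in 37 of 42 pairs, and the means of 7.4% ± 1.73 and 4.64% ± 1.83 (SD) had an exact p of 0.0204 and an adjusted p of 0.278, with 5.48% of sites called. The distal difference was 2.64 points in O2-C (exact test, adjusted p = 0.352, 16.2% of sites called), 2.3 points in O1-C (exact test, adjusted p = 0.484, 4.79% of sites called) and -0.0333 points in O1-PRS (exact test, adjusted p = 1). Proximal differences of AMY minus PFC at birth ran from -3.1 points in O1-C to 2.94 points in O1-PRS, where 4.79% of sites were called as well. The lowest adjusted p for the proximal site was 0.29 in these exact tests. Over all 6 comparisons of regions, AMY had the higher mean in 5 at each site. The median difference over all tested sites was also positive in all 6, from 0.0583 points in O2-PRS to 0.5 points in adult controls.

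The effect of stress was asked in the stressed females themselves and in offspring of both generations. Neither Mad2l1 site passed in any of the 7 comparisons of PRS with C. The smallest exact p was that of the proximal site in O1 PFC. Levels were 4.2%, 4.8%, 7.1%, 7.2% and 9.7% in O1-C and 0.1%, 0.1%, 0.4%, 1%, 2.6% and 3.5% in O1-PRS. Every O1-PRS sample lay below every O1-C sample. The means were 6.6% ± 2.19 (SD, n = 5) and 1.28% ± 1.44 (SD, n = 6), a difference of -5.32 points. The exact p of 0.00433 is the smallest that 6 samples against 5 allow, and the adjusted p was 0.455. Among 146 sites the exact test called 0 (0%), 10 had an unadjusted p under 0.05, and groups did not overlap at 1 site (0.685%), which was this one. The direction held within both library-number sets, at 0.5% (n = 3) against 4.2% (n = 1) and at 2.07% (n = 3) against 7.2% (n = 4).

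Elsewhere the proximal site showed no such separation between the lines. In O1 AMY its means were 4.22% ± 3.5 in PRS and 3.5% ± 2.41 in C (SD, n = 5 each; exact test, adjusted p = 1, with 1.37% of sites called). In O2 PFC they were 3.39% ± 2.4 (SD, n = 7) and 3.3% ± 2.2 (SD, n = 6; exact test, adjusted p = 1, with 1.41% of sites called). The difference between PRS and C at the proximal site was itself 6.04 points higher in O1 AMY than in O1 PFC (exact permutation p = 0.0084) and 5.4 points higher in O2 PFC than in O1 PFC (exact permutation p = 0.00501). The O1 and O2 PFC samples used shared no library-number set, so generation and set cannot be told apart in the latter contrast. Over the 12 differences between effects that were computed, the adjusted permutation p was 0.0504 for each of these, below an FDR of 0.1. Both rest on the same O1 PFC samples. All 12 differences are of Mad2l1 sites, and other sites were not tested this way. These values are therefore not adjusted over the panel, and no share of sites called stands beside them. The O1 PFC comparison of the lines, which was adjusted over the panel, did not pass.

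The distal site of the same O1 PFC samples did not separate the lines. Its levels were 1.7%, 4.4%, 5.7%, 6.4% and 6.6% in O1-C and from 3.1% to 8.2% in O1-PRS, with a median of 4.55% (exact test, adjusted p = 1). Over the 7 stress comparisons the distal difference of PRS minus C ran from -2.26 points in adult PFC to 2.61 points in adult AMY, and the lowest adjusted p of the exact tests was 0.694. In adult PFC the proximal means were 9.1% ± 12.1 (SD, n = 6) in PRS and 8.13% ± 11.1 (SD, n = 3) in C (exact test, adjusted p = 1). In adult AMY they were 12.8% ± 9.34 (SD, n = 7) and 16.1% ± 11.9 (SD, n = 5; exact test, adjusted p = 1). In both adult regions the exact test called 0 of 142 sites (0%), with 6 sites in PFC and 3 in AMY at an unadjusted p under 0.05. In O2 AMY, proximal means were 5.77% ± 4.2 (SD, n = 6) in PRS and 4.66% ± 3.8 (SD, n = 7) in C (exact test, adjusted p = 1), with 2.05% of sites called. Sex was unevenly spread over the lines. O2 AMY held 1 female and 6 males in C and 5 females and 1 male in PRS. O2 PFC held 2 females and 4 males in C and 5 females and 2 males in PRS. O1 PFC held 1 female and 4 males in C and 3 of each sex in PRS.

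Control newborns of both generations share age and treatment and were compared to show how far such groups lay apart. In PFC the proximal mean was 3.3% ± 2.2 (SD, n = 6) in O2-C and 6.6% ± 2.19 (SD, n = 5) in O1-C, a difference of -3.3 points (exact p = 0.0823, adjusted p = 0.552). These PFC groups shared no library-number set, so generation and set cannot be told apart there. In PFC the exact test called 0 of 142 sites (0%) and 14 had an unadjusted p under 0.05. In AMY the proximal difference was 1.16 points (exact test, adjusted p = 0.922, with 4.11% of sites called) and the distal one -1 points (exact test, adjusted p = 0.816). Male minus female newborns, compared within groups, differed by -0.382 points at the proximal site (permutation p = 0.603, adjusted p = 0.778; 25 males and 22 females) and by 0.662 points at the distal site (permutation p = 0.243, adjusted p = 0.493; 26 males and 22 females).

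Oocytes were set against the adult female brain, with C and PRS pooled as the study did. Distal editing of Mad2l1 was near 0 in oocytes and well below both brain regions. The 13 oocyte samples had distal levels from 0% to 0.8%, with a median of 0.2%, at 2617 to 17520 reads each. The 12 adult AMY samples ran from 0.2% to 22.1%, with a median of 13.1%, and the 10 adult PFC samples from 0.2% to 11.8%, with a median of 6.9%. Within the range of the oocytes lay 1 AMY sample, at 0.2%, and 2 PFC samples, at 0.2% and 0.6%. The distal mean of oocytes, 0.246% ± 0.202 (SD, n = 13), lay below that of AMY, 12.6% ± 5.9 (SD, n = 12), with a difference of -12.4 points (exact p = 1.58e-05, adjusted p = 0.000108). It also lay below that of PFC, 6.17% ± 4.4 (SD, n = 10), with a difference of -5.92 points (exact p = 9.62e-05, adjusted p = 0.000587).

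Of the 61 sites tested, 57.4% were called against AMY and 54.1% against PFC. Among 39 3′UTR sites, 19 were called lower and 4 higher in oocytes than in AMY, and 20 lower and 3 higher than in PFC. Within the library-number set that holds 11 oocyte and 4 AMY samples, distal means were 0.236% and 16.1%, and the call held with labels permuted within sets (exact test, adjusted p = 0.0171). All adult PFC samples lie in a set without oocytes, so there set and tissue cannot be told apart.

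Proximal editing of oocytes came in extremes. Of 5 control oocyte samples, 3 had levels that round to 0%, from 5 of 14179, 5 of 10757 and 1 of 8524 reads, and the others had 14.9% (1348 of 9025 reads) and 23.3% (220 of 945 reads). Of 6 PRS samples, 4 lay between 0% and 0.3%, and the others had 5.9% (261 of 4417 reads) and 11.9% (639 of 5369 reads). In PRS samples 165 and 1-0b 0 of 418 and 0 of 859 reads were edited, which allows levels of up to 0.718% and 0.349%. The 4 samples with proximal editing had distal levels between 0.1% and 0.4%.

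The proximal mean of oocytes, 5.13% ± 8.08 (SD, n = 11), differed from that of adult AMY by -9.03 points (exact test, adjusted p = 0.0322) and from that of adult PFC by -3.65 points (exact test, adjusted p = 0.449). The call against AMY was lost with labels permuted within library-number sets (exact test, adjusted p = 0.306), where 9 oocyte samples averaged 3.96% and 4 AMY samples 8.88%. No difference between PRS and control oocytes passed the exact test at either site (adjusted p = 1 at both). In that comparison 0 of 36 sites were called (0%), and 0 had an unadjusted p under 0.05. The means were 3.03% ± 4.93 (SD, n = 6) and 7.64% ± 10.9 (SD, n = 5) at the proximal site, and 0.171% ± 0.111 (SD, n = 7) and 0.333% ± 0.258 (SD, n = 6) at the distal site.

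Mad2l1 took up a far larger share of the reads in oocytes than in brain. In a multiplex PCR this share depends on the other amplicons as well and is not an expression level, and in bulk samples fewer cells of a type and less RNA per cell cannot be told apart. Reads at the distal site made up 2.56% to 22.4% of the reads summed over the 146 sites in oocytes, with a median of 8.03%, and 0.54% to 0.835% in adult AMY, with a median of 0.711%. All 13 oocyte samples lay above all AMY samples, and the ratio of medians was 11.3 (permutation p = 1e-05, the smallest that the resamples can give; adjusted p = 4.42e-05). In oocytes the distal site ranked between 1st and 9th of the 146 sites by reads, with a median rank of 2, against a median rank of 50.5 in adult AMY.

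The proximal site behaved likewise, with a median share of 2.13% in oocytes and 0.324% in adult AMY (ratio of medians 6.56, permutation p = 0.00256, adjusted p = 0.00411), though 2 of 13 oocyte samples had fewer than 50 reads. Against adult PFC the ratios of medians were 11.9 at the distal site (permutation p = 1e-05, adjusted p = 3.32e-05) and 6.11 at the proximal site (permutation p = 0.0019, adjusted p = 0.00347). The share was higher in oocytes at 12 of the 146 sites against each brain region (8.22%) and differed in either direction at 71.9% of the sites against AMY and 74% against PFC. With reads of other genes as the denominator, the ratio of medians of the distal site against AMY was 12.6.

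**Figure D4:**
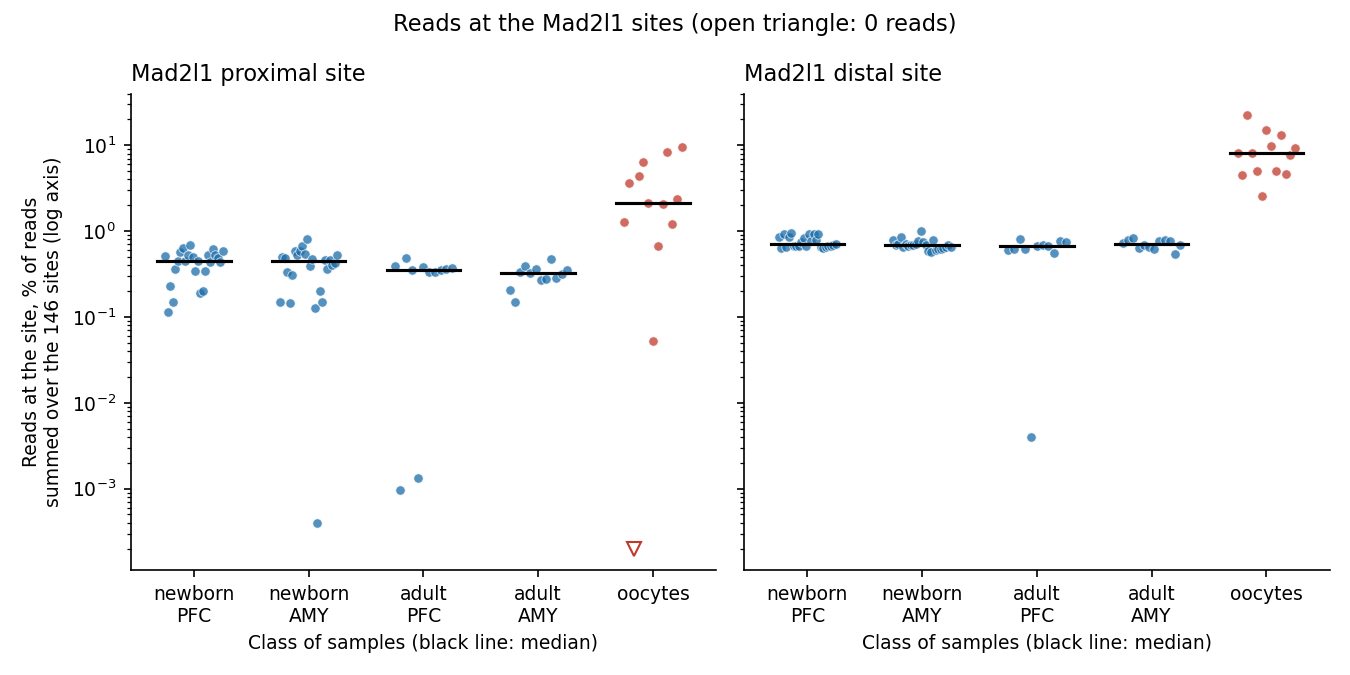
Reads at each Mad2l1 site as a percent of the reads summed over the 146 sites (log axis), 1 point per sample with black lines at the medians. At the distal site all 13 oocyte samples (red, median 8.03%) lie above all brain samples (blue, medians from 0.673% to 0.711%), and the open triangle marks an oocyte sample with 0 reads at the proximal site.

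In the control line, where it was tested, no difference in the share of reads with age passed. In AMY controls the distal share averaged 0.737% ± 0.0784 in adults and 0.744% ± 0.0831 in newborns (SD, n = 5 each; exact test, adjusted p = 1), with 11% of sites called. In PFC controls it averaged 0.532% ± 0.307 and 0.783% ± 0.132 (SD, n = 5 each; exact test, adjusted p = 0.193), with 10.3% of sites called. Proximal reads were fewer than distal reads in all 71 brain samples, with a median of 58.4% of the distal number, and in 11 of 13 oocyte samples.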

How the data were processed

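Total RNA of 72 brain and 13 oocyte samples was measured by mmPCR-seq, with 76-base paired-end reads. Per the study's methods, the authors combined the read pairs and mapped them with BWA to build rn4, together with sequences around splice junctions, allowing 9 mismatches. The submitters' processing notes also name SAMtools, and no versions are given in the sources used here. The authors deposited 1 table per sample with counts, namely the reads at each of 179 listed sites and the reads with G. The deposited fraction, the reads with G divided by all reads and rounded to 3 decimals, is the editing level and is printed here as a percent.

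Levels were used at 50 or more reads, the minimum of the methods, which the files do not apply. Groups came from the labels. The methods exclude brain samples with under 50 reads at over 30% of the 146 sites, which left out 1 O2-C PFC sample (35.6% of sites, Mad2l1 levels of 4.7% and 4.6%), so that 71 brain samples were used. A site needed 3 measured samples in each group. Each site of the 146 was compared by a two-sided Mann-Whitney test, computed exactly, with mid-ranks for ties. P-values were adjusted by Benjamini-Hochberg within nonsynonymous sites and within all other sites, or jointly where oocytes entered, at an FDR of 0.1. Counts of sites below an unadjusted p of 0.05 use the same tests. Reads at Gria2 were looked up after seeing the data. Differences between effects, sex and the relation of the sites used permutation tests, exact or with 100000 resamples.

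Read shares are reads at a site as a percent of reads summed over the 146 sites. Named sites of other genes are the 5 whose means over the 12 brain groups correlate best with each Mad2l1 site, among sites whose group means span at least 2 points. Alternatives covered the test, the adjustment, the read minimum, the samples, library-number sets, sex, the scale and each sample left out in turn. Levels from the read counts, F2 in place of F1 newborns, and pooled newborns against pooled adults were added after seeing the data. The exact tests and the adjustment were tried on simulated levels. These had larger changes and, at like levels, less spread between samples than the Mad2l1 brain groups. They do not show how the tests fare at the spread seen here. Members and lists were chosen with earlier results of these data known. The software was Python 3.11.15 with scipy 1.17.1, pandas 2.3.3, numpy 2.4.6 and, for plots, matplotlib 3.10.9. The sequence around the sites is not shown, since no genome of build rn4 was used here.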

Additional observations from a re-analysis of the deposited data

Results flagged for a closer look

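The difference between PRS and C at the proximal site was 6.04 points higher in O1 AMY (0.72 points) than in O1 PFC (-5.32 points), and a test of this difference itself gave an exact permutation p of 0.0084. It was also 5.4 points higher in O2 PFC (0.0857 points) than in O1 PFC, with an exact permutation p of 0.00501. The O1 and O2 PFC samples used shared no library-number set, so generation and set cannot be told apart there. Over the 12 differences tested, the adjusted permutation p was 0.0504 for both, below the FDR of 0.1 used for sites and above 0.05. Both use the same 11 O1 PFC samples, so they are not independent of each other. All 12 differences are of Mad2l1 sites. Other sites were not tested this way, so the share of sites that would pass is not known. In the O1 PFC samples all 6 O1-PRS levels lay below all 5 O1-C levels. That comparison itself did not pass (exact Mann-Whitney test, adjusted p = 0.455), with 0 of 146 sites called. Among newborn groups O1-C PFC had the highest proximal mean, at 6.6%, and O1-PRS PFC the lowest, at 1.28%. In 27 groups of a site searched for a sample far from the others of its group, 0 were found, where chance alone marks about 1 in 20.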

How the results depend on the processing

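Of the 42 comparisons of Mad2l1 levels 6 passed, and the calls at the distal site of oocytes against AMY and PFC held under every alternative run, with -12.4 and -5.92 points. Against PFC the alternative within library-number sets could not be run, since no set held both oocytes and adult PFC samples. All values below are adjusted p-values of exact tests. With labels permuted within library-number sets, the calls were lost for age at the proximal site in AMY controls (0.185), for age at the distal site in AMY of the PRS line (0.179), for region at the distal site in PRS adults (0.225) and for oocytes against AMY at the proximal site (0.306), whereas age at the proximal site in AMY of the PRS line passed (0.098). Sets hold few samples of both groups, which limits what these tests can reach. With females alone, age at the proximal site in AMY controls gave 0.202, where 2 newborns remained and both lay below every adult. The region call was also lost with a test of means (0.107) and at an FDR of 0.05 (0.0808). Without a minimum of reads, age at the proximal site in AMY of the PRS line passed (0.0633), and age at the proximal site in PFC controls turned to -1.72 points (0.337), since samples with 2 and 4 reads then count. With all newborns against all adults, AMY gave 0.000523 at the distal and 0.000888 at the proximal site. With the left-out O2-C sample kept, stress at the proximal site in O2 PFC turned direction (0.998).

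Leaving out each sample in turn gave 0.0391 to 0.381 for age at the distal site in AMY controls, 0.0178 to 0.213 for age at the proximal site in AMY of the PRS line, and 0.05002 to 0.164 for the region call. Some uncalled differences changed sign without single samples, with values of 0.444 to 1 for age at the distal site in PFC of the PRS line, 0.813 to 1 for region at the distal site in O1-PRS and 0.676 to 1 for generation at the proximal site in AMY. Among stress comparisons they were 0.968 to 1 (adult PFC, proximal), 1 (O1 PFC, distal), 0.857 to 1 (O2 PFC, proximal), 0.98 to 1 (adult AMY, proximal), 0.938 to 1 (adult AMY, distal) and 0.862 to 1 (O1 AMY, proximal). In adult AMY, leaving out control sample 11 turned the stress difference from -3.33 to 1.55 points at the proximal and from 2.61 to -0.111 points at the distal site. The cause of these changes was not tested unless stated. No paired analysis was possible because no sample number occurs in more than 1 group. Read number removed 2 of 5 adult control PFC samples at the proximal site.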
